A study of Mus musculus with 12 samples.

Results

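Tumor-associated macrophages (TAMs) sorted from tumors of day 8 (early stage) and of day 15 (late stage) were compared across the autosomal genes, those on chromosomes 1 to 19. Of the 55401 genes in the count table, 50957 were autosomal, and 17012 of these were among the 17630 genes with enough counts to be tested. The comparison used 6 of the 12 samples in the series, namely 3 early-stage and 3 late-stage libraries of bulk RNA, all labelled WT with the treatment given as Non. Per the methods of the study, tumors were grown from B16-F10 melanoma cells, a mouse line of the C57BL/6 strain, injected under the skin of female C57BL/6 mice aged 5 weeks. TAMs were gated there as CD45+CD11b+Ly6C-Ly6G-F4/80+ cells, while a legend of the study writes Ly6C+ for the same gate. The sequencing methods describe only a day 15 sort of another experiment, and the labels do not say whether each library came from 1 mouse or from a pool, so p-values measure only the spread between these libraries, which may be technical.

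TAMs derive largely from blood monocytes that enter the tumor by chemokine receptors such as CCR2, lose monocyte genes over days and take up macrophage genes. Depending on their surroundings they present antigen, respond to interferons, engulf dying cells, recycle iron, break down arginine or remodel matrix, and these activities are read in bulk RNA through groups of genes. In bulk RNA, fewer cells of a type and less RNA per cell cannot be told apart.

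Library totals were 84470374, 77155066 and 83517781 counts in early-stage replicates 1, 2 and 3, and 82483094, 79623704 and 82499295 counts in late-stage replicates 1, 2 and 3. Values are given as CPM, the counts of a gene relative to the scaled library total, with scaling by the trimmed mean of M-values (TMM) and in that order of replicates. Fold changes are log2 of late-stage over early-stage, from edgeR's quasi-likelihood test. Their standard error (SE) was computed back from its F statistic, as the size of the change over the square root of F. A gene was called where its Benjamini-Hochberg adjusted p over all genes tested was under 0.05. Genes of the gate were checked first. Ptprc (CD45), Itgam (CD11b) and Adgre1 (F4/80) were not called, at 576, 677 and 697 against 746, 693 and 718 CPM for Ptprc, 1069, 1097 and 1086 against 1131, 1110 and 1119 CPM for Itgam and 810.0, 874 and 909.8 against 918, 937 and 954 CPM for Adgre1. Ly6g had 0 counts in 5 libraries and 5 counts in late-stage replicate 3. Ly6c2, which encodes the monocyte antigen Ly6C, fell from 31.7, 30.0 and 28.7 CPM in the early-stage libraries to 6.83, 8.88 and 9.47 CPM in the late-stage libraries (log2 fold change −1.84, SE 0.13, adjusted p = 4.79e-05). Ly6c1 was low, at 2.5, 2.09 and 2.21 against 0.762, 0.987 and 1.33 CPM, and its call (−1.14, adjusted p = 0.0327) did not hold (adjusted p up to 0.121 without early-stage replicate 1 or 2 or late-stage replicate 1 or 2 and under 2 other alternatives).

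Libraries of the stages also differed in ways other than the day. Of 4 Y-linked genes, the summed counts were 3435, 3489 and 4035 in the early-stage and 0, 4 and 0 in the late-stage libraries, although the methods name female mice, and counts of the X-linked Xist were 13568, 22094 and 18274 against 41700, 23982 and 24740. The day of the tumor and the sex of the mice cannot be told apart here. Mitochondrial genes took 1.86, 2.10 and 3.15% of the counts in the early-stage and 1.64, 1.84 and 1.81% in the late-stage libraries, so that early-stage replicate 3 stood apart. No pair of libraries within a stage agreed within sampling noise. Among genes with a mean of at least 50 counts, the median chi-square of a pair ranged from 9.84 to 22.6 in the early-stage and from 3.51 to 6.91 in the late-stage libraries. Of 218 immunoglobulin V genes, 50 had at least 5 counts in every early-stage library, of which 3 had 0 in the late-stage libraries, and 52 had at least 5 counts in every late-stage library, of which 4 had 0 in the early-stage libraries. The latter included Ighv1-18, with 89, 54 and 64 counts, and whether libraries of a stage shared an animal was not tested.

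Markers of other cell types were summed in each library, since a macrophage gate may hold some of them. Macrophage markers, 14 genes led by C1qa, summed to 12237, 11288 and 10261 CPM in the early-stage libraries and 10269, 10258 and 10227 CPM in the late-stage libraries, and the stages overlapped only at the edge (two-sided exact permutation p = 0.2). Sums of monocyte markers (16 genes) were 1024, 1081 and 1178 CPM in the early-stage libraries and 608, 553 and 556 CPM in the late-stage libraries. B16 melanoma markers (10 genes, led by Dct) gave sums of 1774, 1788 and 1934 CPM in the early-stage libraries and 816, 1261 and 1286 CPM in the late-stage libraries, and fibroblast markers (10 genes, led by Col1a1) gave 1006, 938 and 911 CPM in the early-stage libraries and 485, 671 and 679.9 CPM in the late-stage libraries. T cell markers (16 genes) summed to 336, 322 and 325 CPM in the early-stage libraries and 410.1, 468 and 454 CPM in the late-stage libraries, and B cell markers (13 genes) to 211, 214 and 230.2 CPM in the early-stage libraries and 313, 403 and 391 CPM in the late-stage libraries. NK cell markers (9 genes) summed to 142, 137 and 153 CPM in the early-stage libraries and 64.7, 81.7 and 83.2 CPM in the late-stage libraries, neutrophil markers (18 genes) to 195, 192 and 176 CPM in the early-stage libraries and 145, 139.8 and 139.9 CPM in the late-stage libraries, and conventional dendritic cell markers (14 genes) to 455, 463 and 470.3 CPM in the early-stage libraries and 586, 649 and 643 CPM in the late-stage libraries. For each of these 8 lists of other cells the stages did not overlap, with p = 0.1 in the exact permutation test, which is the smallest that 3 against 3 can give. Monocyte, melanoma, fibroblast, NK and neutrophil sums were lower at day 15, and T, B and dendritic cell sums were higher. The dendritic cell list went both ways, with 5 of 14 markers (Wdfy4, Fscn1, Ccl22, Ccr7 and Itgae) called higher and 3 (Cd209a, Dpp4 and Kmo) lower, where the higher count was 3 without early-stage replicate 2 and 2 without late-stage replicate 2 or 3 and the lower count was 1 without early-stage replicate 2 or late-stage replicate 1, 2 or 3. No marker of these lists was at 0 in every library. Monocyte and neutrophil sums were lower in the same libraries as the chemotactic receptors, C-type lectins, Toll-like receptors, interferon-induced genes, CC chemokines and scavenger genes described below. Some genes count in both a marker list and a program list, among them Ccr2, the highest monocyte marker. The part of any of these cell types in the results that follow was not tested.

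**Figure D1:**
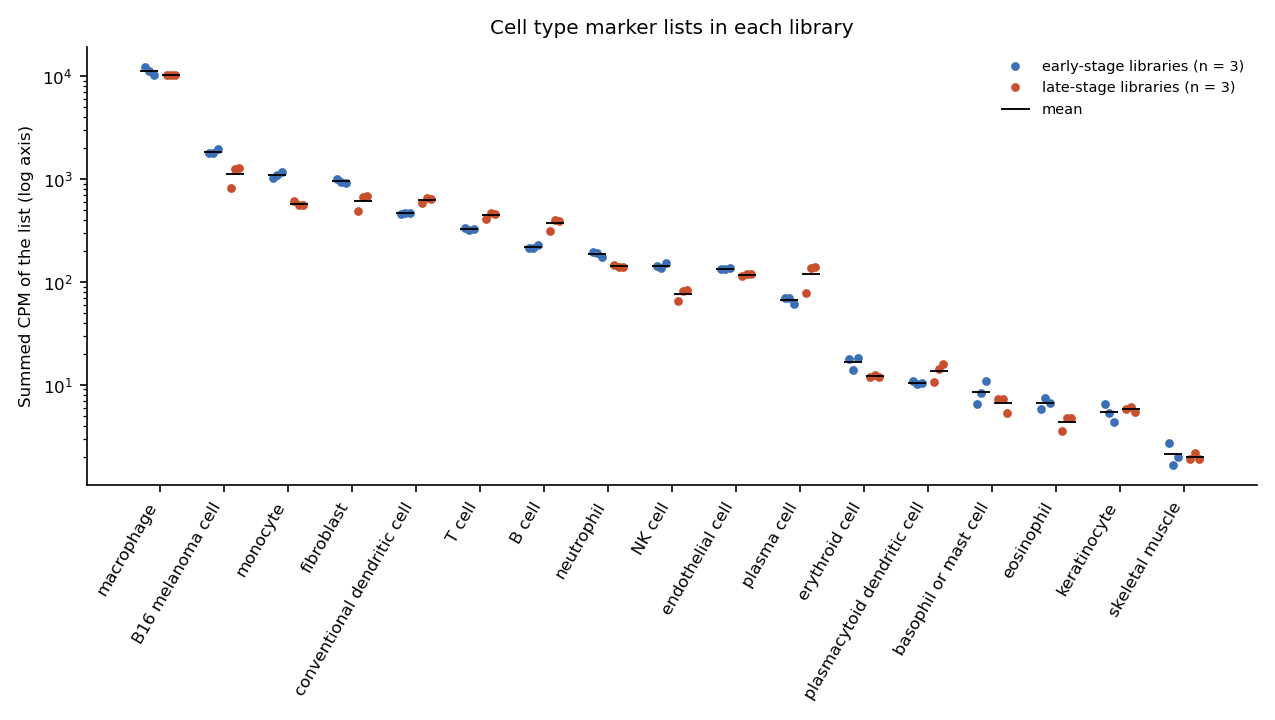
Summed CPM of each cell type marker list with a sum above 0 in every library (vertical axis, log scale). The 3 early-stage and 3 late-stage libraries have 1 point each, with a line for the mean. Monocyte sums lay between 1024 and 1178 CPM in the early-stage and between 553 and 608 CPM in the late-stage libraries, while T and B cell sums were higher in every late-stage library.

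Across the autosomal genes, 736 (4.33%) were higher and 838 (4.93%) lower in late-stage TAMs at an adjusted p under 0.05. Counts of called list members below are to be read beside these shares. With an absolute log2 fold change above 1 as well, 99 genes (0.582%) were higher and 216 (1.27%) lower. All 315 of these had libraries of the stages that did not overlap. The 99 higher genes included 7 V and 3 constant-region genes of immunoglobulins, and the 216 lower genes included 3 V genes. Without a test, every late-stage library was above every early-stage library for 2673 genes (15.7%) and below for 2653 (15.6%). Most called genes moved little, since 1259 of the 1574 had a log2 fold change of 1 or less in size and the median size was 0.59, against a median signed change of 0.0051 over all autosomal genes tested. Counts depended on single libraries. Higher calls fell to 293 without early-stage replicate 2, to 275 without late-stage replicate 2 and to 275 without late-stage replicate 3, and rose to 1483 without early-stage replicate 1. Lower calls were 367 without early-stage replicate 2, 458 without late-stage replicate 1, 358 without late-stage replicate 2 and 388 without late-stage replicate 3. With each library left out in turn, 220 of the 736 higher and 297 of the 838 lower calls were made every time. Among the genes past the fold threshold, these were 52 of 99 and 132 of 216, and the higher count was 65 without late-stage replicate 2 or 3 and 178 without early-stage replicate 1. Where a called gene is given with its fold change, its call also held under all 13 alternatives unless a larger adjusted p is given beside it. Genes given by name alone, in brackets after a count, were listed after their values were seen, and some of them lost their call with a library left out.

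**Figure D2:**
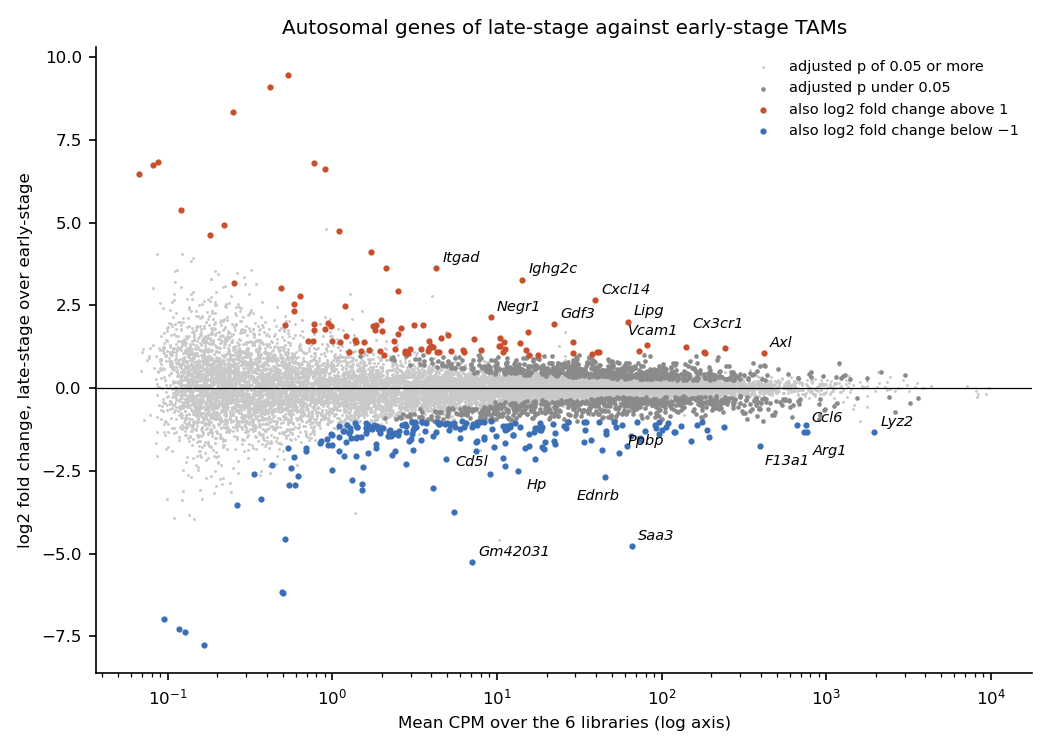
Each point is 1 of the 17012 autosomal genes tested, with its mean CPM over the 6 libraries (horizontal, log scale) and its log2 fold change of late-stage over early-stage TAMs (vertical). Coloured points are the 99 higher and 216 lower genes with an adjusted p under 0.05 and a log2 fold change above 1 in size.

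The genes with the smallest p among those higher at day 15 were led by Cxcl14, Lipg and Ighg2c. Genes listed by this rule, in either direction, had to separate the stages, as all 315 genes past both thresholds did. Cxcl14 (ENSMUSG00000021508.11, GRCm38 chr13:56288643-56296551, minus strand), a chemokine, was at 10.5, 9.74 and 11.7 CPM in the early-stage libraries and 66.4, 65.6 and 71.3 CPM in the late-stage libraries (log2 fold change 2.67, SE 0.10, adjusted p = 1.67e-06). Every late-stage library thus exceeded every early-stage library, with little spread inside a stage. Lipg, endothelial lipase, was at 23.3, 24.8 and 26.1 CPM in the early-stage libraries and 106, 95.6 and 98.2 CPM in the late-stage libraries (log2 fold change 2.01, SE 0.08, adjusted p = 2.14e-06). Ighg2c, an immunoglobulin heavy chain constant region, rose from 2.93, 2.92 and 2.12 CPM in the early-stage libraries to 20.8, 27.4 and 29.2 CPM in the late-stage libraries (log2 fold change 3.28, SE 0.18, adjusted p = 1.15e-05), beside the higher B cell sums above. It is itself in the plasma cell marker list (11 genes), with sums of 69.4, 69.2 and 60.3 CPM in the early-stage libraries. Late-stage sums of that list were 77.1, 136 and 141 CPM, with replicate 1 nearest to the early-stage libraries. Hgsnat, a lysosomal enzyme of heparan sulfate breakdown, was at 150.4, 145 and 141 CPM in the early-stage libraries and 324, 346 and 350.2 CPM in the late-stage libraries (log2 fold change 1.22, SE 0.07, adjusted p = 1.19e-05). Ighg2c and Hgsnat again separated the stages without overlap, as the rule required. Vcam1 (ENSMUSG00000027962.14, chr3:116109949-116129688, minus strand), an adhesion molecule of stimulated endothelium and of some TAMs, was at 75.3, 82.5 and 93.5 CPM in the early-stage libraries and 193, 197 and 202 CPM in the late-stage libraries (log2 fold change 1.24, SE 0.09, adjusted p = 4.26e-05). Itgad (chr7:128154376-128223816, plus strand), an integrin alpha chain that pairs with Itgb2, was under 1 CPM at day 8, at 0.942, 0.362 and 0.617 CPM in the early-stage libraries and 7.67, 8.12 and 8.05 CPM in the late-stage libraries (log2 fold change 3.63, SE 0.30, adjusted p = 1.04e-04), and 19.7% of its exon bases are shared with other genes.

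Olfml3, a secreted matrix protein, Gdf3, a growth factor of the TGF-beta family, and Asb2, a subunit of a ubiquitin ligase, rose with log2 fold changes of 1.29, 1.93 and 1.70. Cadm1 and Negr1, adhesion molecules of the immunoglobulin superfamily, had 1.08 and 2.14, and Sh2d1b1, an adaptor of SLAM family receptors, had 1.04. Adjusted p for these 6 genes ranged from 3.51e-05 to 7.33e-05. Siglece, an inhibitory receptor for sialic acid, was at 47.2, 43.8 and 46.6 CPM in the early-stage libraries and 101, 96.4 and 104 CPM in the late-stage libraries (log2 fold change 1.13, SE 0.07, adjusted p = 2.65e-05). Among genes with a mean of at least 10 CPM, the largest rises also held Notch4 (1.51, adjusted p = 4.39e-04), a Notch receptor, Snn (1.39, adjusted p = 4.87e-04), and Tnfsf13b (1.37, adjusted p = 1.94e-04), which encodes the B cell survival factor BAFF. Phc3, a Polycomb protein, met the same rule at 13.4, 17.8 and 16.9 against 22.7, 52.0 and 51.4 CPM, where late-stage replicate 1 was nearer to the early-stage libraries than to the other two (adjusted p up to 0.0615 without early-stage replicate 2 or late-stage replicate 2 or 3 and with no filter on low counts).

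The genes with the smallest p among those lower at day 15 were led by Gm42031. Gm42031 (ENSMUSG00000110386.1, chr8:85125872-85132289, minus strand), a long intergenic RNA, was at 12.8, 14.4 and 14.2 CPM in the early-stage libraries and 0.381, 0.337 and 0.351 CPM in the late-stage libraries (log2 fold change −5.27, SE 0.16, adjusted p = 6.04e-07). Saa3 (ENSMUSG00000040026.8, chr7:46711998-46715700, minus strand), the serum amyloid A protein made by macrophages, was at 168, 124 and 89.0 CPM in the early-stage libraries and 4.98, 5.02 and 3.85 CPM in the late-stage libraries (log2 fold change −4.78, SE 0.23, adjusted p = 6.34e-06). Early-stage libraries spread widely for Saa3, and all of them lay far above the late-stage libraries. Hp, haptoglobin, which binds free hemoglobin, was at 23.7, 21.2 and 23.7 CPM in the early-stage libraries and 3.42, 4.21 and 4.56 CPM in the late-stage libraries (log2 fold change −2.49, SE 0.14, adjusted p = 1.15e-05). Ednrb (chr14:103814625-103844402, minus strand), an endothelin receptor also made by cells of the melanocyte lineage, was at 69.2, 77.3 and 90.2 CPM in the early-stage libraries and 14.3, 12.3 and 9.99 CPM in the late-stage libraries (log2 fold change −2.69, SE 0.15, adjusted p = 1.15e-05). Melanoma marker sums fell as well, by a smaller ratio than Ednrb, and their part in it was not tested. Lyz2, lysozyme of macrophages, was at 3009, 2884 and 2476 CPM in the early-stage libraries and 1092, 1102 and 1129 CPM in the late-stage libraries (log2 fold change −1.33, SE 0.08, adjusted p = 1.89e-05), and its near-identical copy Lyz1 makes the split of reads between both genes uncertain.

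Acod1, the enzyme that makes itaconate in stimulated macrophages, fell from 109, 113 and 118 CPM in the early-stage libraries to 48.1, 44.2 and 46.1 CPM in the late-stage libraries (log2 fold change −1.30, SE 0.07, adjusted p = 1.34e-05). Cd38 and Bst1, related ectoenzymes that use NAD, fell with log2 changes of −1.75 and −1.28 (adjusted p = 1.72e-05 and 2.64e-05). Pdpn, podoplanin, a membrane glycoprotein of stromal cells and some macrophages, was at 135, 135 and 149 CPM in the early-stage libraries and 52.2, 56.2 and 53.0 CPM in the late-stage libraries (log2 fold change −1.37, SE 0.08, adjusted p = 1.15e-05). No early-stage library overlapped a late-stage library for these 4 genes. Chil3, a chitinase-like protein of monocytes and alternatively activated macrophages, was at 21.7, 22 and 25.2 against 7.01, 6.02 and 6.68 CPM (−1.81, adjusted p = 2.65e-05). Dpm1, a subunit of dolichol-phosphate mannose synthase, also met the rule of largest falls, with early-stage values from 40.4 down to 12.4 CPM (−2.13, adjusted p = 0.00822), and lost its call in some alternatives (adjusted p up to 0.0519 without late-stage replicate 1 or 2).

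**Figure D3:**
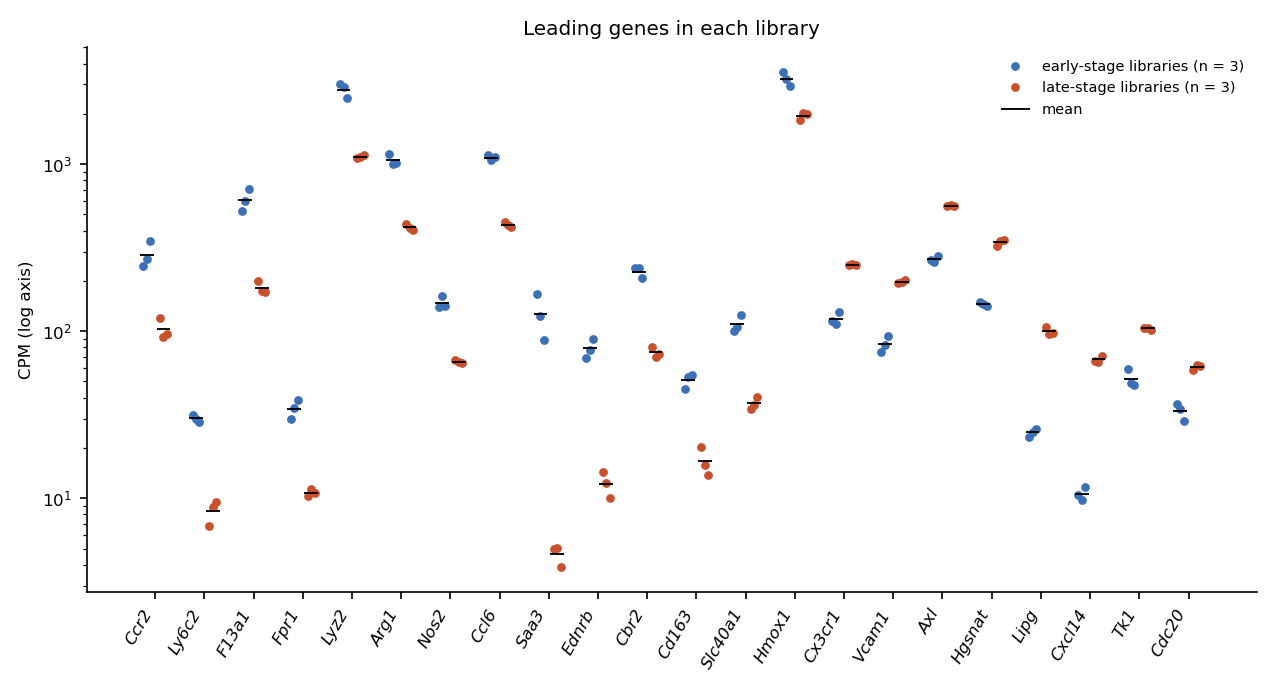
CPM (vertical, log scale) of 22 named genes in each of the 3 early-stage and 3 late-stage libraries, with a line for the mean of each stage. Saa3 lay between 89.0 and 168 CPM in the early-stage and between 3.85 and 5.02 CPM in the late-stage libraries. The 22 genes were picked from called genes, and the stages did not overlap for any of them.

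Most receptors that guide monocytes and other myeloid cells fell in late-stage TAMs. Of 16 chemotactic receptors tested, 12 were lower and 2 higher, with a median log2 fold change of −0.46, beside 4.93% of all autosomal genes lower and 4.33% higher. The lower count was 5 without early-stage replicate 2 or late-stage replicate 2 or 3 and 6 without late-stage replicate 1. The higher members were Cx3cr1 and Ccr7, a receptor of dendritic cells that migrate to lymph nodes, of which Ccr7 was not called without early-stage replicate 2 or late-stage replicate 2 or 3. Ccr2, the receptor that draws monocytes out of the marrow, was at 244, 271 and 348 CPM in the early-stage libraries and 121, 93 and 95.6 CPM in the late-stage libraries (log2 fold change −1.48, SE 0.14, adjusted p = 2.73e-04). Ccr1, a receptor of several CC chemokines, was at 149, 168 and 196 CPM in the early-stage libraries and 70.0, 65.0 and 68.4 CPM in the late-stage libraries (log2 fold change −1.33, SE 0.10, adjusted p = 6.55e-05). Fpr1, a receptor for formylated peptides of bacteria and mitochondria, fell from 29.8, 34.6 and 38.7 CPM in the early-stage libraries to 10.3, 11.3 and 10.7 CPM in the late-stage libraries (log2 fold change −1.67, SE 0.12, adjusted p = 4.26e-05). Early-stage values spread more than late-stage values for these 3 receptors, yet the stages did not overlap. Ltb4r1, the high-affinity leukotriene B4 receptor, had a change of −1.14 (adjusted p = 4.39e-04). Cx3cr1, the fractalkine receptor of tissue macrophages and patrolling monocytes, rose instead, from 115, 110.2 and 130.1 CPM in the early-stage libraries to 248, 252 and 249 CPM in the late-stage libraries (log2 fold change 1.07, SE 0.08, adjusted p = 4.79e-05).

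Most markers of monocytes fell too. Of 15 monocyte markers tested, 11 were lower and 1 (Cd300e) higher (median −1.18), and 10 of the 11 were called with each library left out in turn. Ccr2, Vcan, Clec4e and Ms4a4c are among these 10 and are also counted in program lists. Vcan, versican, a proteoglycan made by monocytes, was at 43.1, 57.2 and 65.9 CPM in the early-stage libraries and 21.1, 18.9 and 16.3 CPM in the late-stage libraries (log2 fold change −1.56, SE 0.16, adjusted p = 3.51e-04), and F13a1, a coagulation factor chain of monocytes and resident-type macrophages, was at 523, 606 and 708 CPM in the early-stage libraries and 201, 174 and 171 CPM in the late-stage libraries (log2 fold change −1.75, SE 0.12, adjusted p = 2.65e-05). Plac8, a monocyte gene named after its values were seen, was at 186, 173 and 158 against 74.5, 66.7 and 66.7 CPM (−1.31, adjusted p = 2.65e-05). Every late-stage library was below the lowest early-stage library for all 3 genes. Whether the lower monocyte markers reflect fewer monocytes in the gate was not tested. Ms4a genes encode membrane proteins of myeloid cells, and 5 of 9 tested were lower and 0 higher (median −0.64). The largest falls among them were Ms4a8a, at 16.1, 16.7 and 18.2 against 6.45, 4.92 and 4.82 CPM (−1.65, adjusted p = 1.45e-04), and Ms4a4a, at 96.9, 102 and 132 against 40.6, 37.1 and 38.4 CPM (−1.51, adjusted p = 6.87e-05).

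C-type lectins, which bind sugars of microbes and dead cells, gave 6 lower and 2 (Clec4b1 and Clec12a) higher of 14 (median −0.23). The higher count was 0 without early-stage replicate 2 or late-stage replicate 2 or 3 and 1 without late-stage replicate 1. Clec4n (dectin-2), Clec4d and Clec4e (Mincle) form 1 cluster of pattern receptors and had log2 changes of −1.21, −1.14 and −1.18, with adjusted p of 2.85e-05, 4.79e-05 and 1.99e-04. Clec4d, for example, was at 197, 182 and 164 CPM in the early-stage libraries and 81.3, 84.4 and 80.8 CPM in the late-stage libraries, without overlap. Clec10a, a galactose-type lectin of alternatively activated macrophages, fell by 0.68 (adjusted p = 0.00274). Of 12 Toll-like receptor genes, 4 (Tlr5, Tlr6, Cd14 and Ly96) were lower and 1 higher, and the lower count was 2 without early-stage replicate 2 and 1 without late-stage replicate 3. Tlr5, the receptor of flagellin, was at 7.93, 11.9 and 10.6 against 5.08, 4.8 and 5.19 CPM (−1.01, adjusted p = 0.00494), and Cd14, a coreceptor for endotoxin, was at 445, 403 and 301 against 247, 229 and 234 CPM (−0.70, adjusted p = 0.00816), a call lost in some alternatives (adjusted p up to 0.0537 without early-stage replicate 2 or late-stage replicate 2 or 3). Unc93b1, which carries nucleic acid-sensing receptors to endosomes, rose from 745, 679 and 587 CPM in the early-stage libraries to 934, 896 and 902 CPM in the late-stage libraries (log2 fold change 0.44, SE 0.09, adjusted p = 0.0137) and was also called in fewer alternatives (adjusted p up to 0.0647 without early-stage replicate 2 or late-stage replicate 1, 2 or 3). Of the 5 Fc gamma receptor genes, only Fcgr2b, the inhibitory member, was called, at 427, 439.8 and 429 CPM in the early-stage libraries and 299, 265 and 268 CPM in the late-stage libraries (log2 fold change −0.64, SE 0.07, adjusted p = 6.25e-04).

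Most genes of the cell cycle lists were higher in late-stage TAMs. Of 35 genes of mitosis, 25 were higher and 0 lower (median log2 fold change 0.48), and of 35 genes of DNA replication, 25 were higher and 0 lower (median 0.42), beside 4.33% and 4.93% of all autosomal genes. Late-stage libraries were all above early-stage libraries for 33 and 31 members, beside 15.7% of all genes. The count of mitosis genes was 12 without early-stage replicate 2 or late-stage replicate 2 or 3, and that of replication genes was 14 without early-stage replicate 2 or late-stage replicate 3, 15 without late-stage replicate 1 and 13 without late-stage replicate 2. With each library left out in turn, 12 mitosis and 13 replication genes were called every time. Sums of T and B cell markers were higher in the late-stage libraries too, and their part in the cell cycle genes was not tested.

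Tk1, thymidine kinase, was at 59.5, 49.0 and 47.6 CPM in the early-stage libraries and 105, 104 and 102 CPM in the late-stage libraries (log2 fold change 1.00, SE 0.09, adjusted p = 2.29e-04). Pold1, the catalytic subunit of DNA polymerase delta, was at 52.3, 44.5 and 44.9 CPM in the early-stage libraries and 84.8, 77.1 and 78.9 CPM in the late-stage libraries (log2 fold change 0.76, SE 0.09, adjusted p = 6.92e-04), and Mcm5, a subunit of the replicative helicase, was at 131, 118 and 125 CPM in the early-stage libraries and 181, 192 and 192 CPM in the late-stage libraries (log2 fold change 0.60, SE 0.07, adjusted p = 9.11e-04). The stages did not overlap for any of them, and the late-stage libraries lay close together. Lig1, the ligase that joins replicated fragments, and Uhrf1, which maintains DNA methylation, had log2 changes of 0.68 and 0.62 (adjusted p = 5.60e-04 and 6.22e-04). In mitosis, Cdc20, an activator of the anaphase-promoting complex, was at 36.6, 34.4 and 29.0 CPM in the early-stage libraries and 58.3, 62.7 and 62.0 CPM in the late-stage libraries (log2 fold change 0.87, SE 0.10, adjusted p = 6.39e-04). Bub1b, a kinase-like protein of the spindle checkpoint, was at 49.9, 53.0 and 56.1 CPM in the early-stage libraries and 83.8, 85.4 and 86.4 CPM in the late-stage libraries (log2 fold change 0.68, SE 0.07, adjusted p = 5.33e-04). Ccnb2, a B-type cyclin, was at 46.0, 45 and 44.6 CPM in the early-stage libraries and 69.2, 69.0 and 69.2 CPM in the late-stage libraries (log2 fold change 0.61, SE 0.07, adjusted p = 6.63e-04). Late-stage values of Ccnb2 were almost equal, above every early-stage value. Kif20a, a kinesin of cytokinesis, and Foxm1, a transcription factor of G2 and mitosis genes, had 0.77 and 0.65 (adjusted p = 4.39e-04 and 9.74e-04), and 29.3% of the exon bases of Kif20a are shared with other genes. Mki67, the proliferation marker Ki-67, was named after its values were seen, and its call (0.49, adjusted p = 0.0476) was lost in several alternatives (adjusted p up to 0.177 without early-stage replicate 2 or late-stage replicate 1, 2 or 3 and under 2 other alternatives).

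Many genes of G2 and mitosis carry CCAAT boxes near their start, a motif bound by NF-Y. Windows of 250 bases upstream of RefSeq starts (GRCm38.p6) were searched on both strands for CCAAT. Of 30 mitosis members with a window, 23 (76.7%) held it, as did 16 of 28 replication members (57.1%), beside 33.7% of all 31396 windows and 37.4% of genes. Among mitosis members with a window, 17 of 20 called and 6 of 10 not called genes held it, and among replication members 13 of 21 and 3 of 7. The windows of Bub1b (chr2:118597961-118598210, plus strand), Cdc20 (chr4:118437344-118437593, minus strand) and Ccnb2 (chr9:70421555-70421804, minus strand) are printed 5′ to 3′ on the strand of the gene, with the motif on either strand in capitals. They were picked by smallest p among called mitosis members that hold a match, so a match in each was set by the choice. The matches begin 113 bases before the start in Bub1b, 53 and 8 bases before it in Cdc20, and 87, 54 and 21 bases before it in Ccnb2. A match is a run of letters and was not tested as a binding site.
Bub1b: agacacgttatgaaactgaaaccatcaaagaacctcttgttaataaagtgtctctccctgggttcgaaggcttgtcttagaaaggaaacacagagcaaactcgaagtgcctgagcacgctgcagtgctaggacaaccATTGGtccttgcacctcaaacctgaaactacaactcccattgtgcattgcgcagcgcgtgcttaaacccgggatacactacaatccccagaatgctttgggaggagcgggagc
Cdc20: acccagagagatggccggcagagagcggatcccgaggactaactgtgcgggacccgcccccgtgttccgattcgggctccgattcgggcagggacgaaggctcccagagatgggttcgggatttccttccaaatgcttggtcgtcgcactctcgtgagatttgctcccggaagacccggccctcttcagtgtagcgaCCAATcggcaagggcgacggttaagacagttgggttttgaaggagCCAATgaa
Ccnb2: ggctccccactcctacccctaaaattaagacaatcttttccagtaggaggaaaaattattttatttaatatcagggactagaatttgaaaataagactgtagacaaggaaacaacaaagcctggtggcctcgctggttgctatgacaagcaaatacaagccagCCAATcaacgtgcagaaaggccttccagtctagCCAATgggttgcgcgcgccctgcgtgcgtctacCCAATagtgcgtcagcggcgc

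Some genes induced by interferons were lower in late-stage TAMs, and most were not called. Of 38 genes of the type I interferon response, 15 (39.5%) were lower and 0 higher (median −0.27). Late-stage libraries were all below early-stage libraries for 25 and all above for 2, beside 15.6% and 15.7% of all autosomal genes. Of 23 genes of the interferon gamma response, 10 (43.5%) were lower and 1 higher (median −0.31), beside 4.93% of all autosomal genes lower and 4.33% higher. The type I count was 6 without early-stage replicate 2 or late-stage replicate 2 or 3 and 7 without late-stage replicate 1, and the interferon gamma count was 6 without early-stage replicate 2 or late-stage replicate 3 and 4 without late-stage replicate 2. Under each left-out library, 6 and 4 genes were called every time.

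Ifi205, a DNA-sensing family member, was at 125, 128 and 144 CPM in the early-stage libraries and 73.2, 67.7 and 68.7 CPM in the late-stage libraries (log2 fold change −0.93, SE 0.08, adjusted p = 1.42e-04). Ifit1, which binds viral RNA caps, was at 102, 111 and 141 CPM in the early-stage libraries and 67.6, 61.8 and 62.8 CPM in the late-stage libraries (log2 fold change −0.88, SE 0.12, adjusted p = 0.00147). Rsad2, the antiviral enzyme viperin, was at 253, 258 and 294 CPM in the early-stage libraries and 179, 174 and 174 CPM in the late-stage libraries (log2 fold change −0.61, SE 0.08, adjusted p = 0.00115). All 3 late-stage libraries were below all early-stage libraries for each of them, and the late-stage values were close together. Ifit3 fell by 0.47 (adjusted p = 0.00284), although reads may be split with its near-identical copy Ifit3b. Of the guanylate-binding proteins and immunity-related GTPases, which attack vacuoles of pathogens, Irgm1 was at 196, 198 and 231 CPM in the early-stage libraries and 149, 136 and 140.4 CPM in the late-stage libraries (log2 fold change −0.56, SE 0.08, adjusted p = 0.00338), while Gbp2b (−1.11, adjusted p = 7.59e-04), Tgtp1 (−0.81, adjusted p = 2.73e-04) and Tgtp2 (−0.56, adjusted p = 0.00186) also have near-identical copies. Cxcl9, an interferon gamma-induced chemokine that draws T cells, went the other way and was named after its values were seen. It was at 235, 247 and 278 CPM in the early-stage libraries and 329, 313 and 309 CPM in the late-stage libraries (log2 fold change 0.32, SE 0.08, adjusted p = 0.032), and its call did not hold (adjusted p up to 0.141 without early-stage replicate 2 or late-stage replicate 1, 2 or 3 and under 2 other alternatives). Cd274, the checkpoint ligand PD-L1, was at 250.4, 282 and 273 against 208, 188 and 193 CPM (−0.45, adjusted p = 0.00558) and lost its call in 1 alternative (adjusted p up to 0.0519 without late-stage replicate 2).

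Interferon-induced promoters often carry the interferon-stimulated response element, whose core was searched as GAAANNGAA on both strands. It was in 15 of 27 type I members with a window (55.6%) and in 13 of 16 interferon gamma members (81.2%), beside 7.14% of all 31396 windows and 8.21% of genes. Among type I members, 7 of 11 called and 8 of 16 not called genes held it, and among interferon gamma members 9 of 10 and 4 of 6. Other motifs were searched the same way in lists described below. Over all genes with a window, ACGTG was in 18.6%, TCACGTG in 3.58%, CACGTG in 6.88% and GGGANTTTC in 1.13%. Given as called and then not called, ACGTG was in 4 of 4 and 9 of 14 hypoxia genes. TCACGTG was in 0 of 6 and 8 of 24 lysosomal genes, and CACGTG in 0 of 1 and 5 of 14 clock genes. GGGANTTTC was in 0 of 6 and 2 of 12 NF-kB targets and 0 of 7 and 2 of 15 cytokine genes. It was in 2 of 7 and 2 of 3 CXC and 0 of 4 and 0 of 3 CC chemokines. Of 20 glycolysis genes, none called, 10 held ACGTG. The windows of Ifi205 (chr1:174031756-174032005, minus strand), Rsad2 (chr12:26456453-26456702, minus strand) and Ifit1 (chr19:34640639-34640888, plus strand) are given with the GAAANNGAA core in capitals, which reads TTCNNTTTC where it lies on the other strand. They too were picked by smallest p among called type I members that hold a match. The core begins 134 bases before the start in Ifi205 and 119 bases before it in Rsad2. Ifit1 holds 3 matches, which begin between 109 and 84 bases before its start, and 2 of them overlap.
Ifi205: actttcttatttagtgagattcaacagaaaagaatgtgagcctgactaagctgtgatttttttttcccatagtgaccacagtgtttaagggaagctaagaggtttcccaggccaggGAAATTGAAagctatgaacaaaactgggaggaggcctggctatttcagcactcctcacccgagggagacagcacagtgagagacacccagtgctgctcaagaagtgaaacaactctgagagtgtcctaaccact
Rsad2: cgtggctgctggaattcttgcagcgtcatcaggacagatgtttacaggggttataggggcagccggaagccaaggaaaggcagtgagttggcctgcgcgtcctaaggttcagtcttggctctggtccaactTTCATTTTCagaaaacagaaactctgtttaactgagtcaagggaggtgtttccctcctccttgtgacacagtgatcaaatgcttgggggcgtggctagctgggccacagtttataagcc
Ifit1: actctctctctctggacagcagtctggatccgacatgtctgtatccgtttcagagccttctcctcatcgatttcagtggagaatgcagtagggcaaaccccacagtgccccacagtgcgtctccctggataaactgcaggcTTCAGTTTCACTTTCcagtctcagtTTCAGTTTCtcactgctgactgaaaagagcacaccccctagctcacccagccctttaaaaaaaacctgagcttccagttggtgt

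Antigen presentation by MHC class II was covered by a list of its own. Of 11 genes, 3 were lower and 0 higher (median −0.33). H2-Aa, an alpha chain of I-A, was at 1339, 1320 and 1295 CPM in the early-stage libraries and 949, 879 and 879.7 CPM in the late-stage libraries (log2 fold change −0.55, SE 0.06, adjusted p = 7.89e-04), and Cd74, the invariant chain, was at 3935, 3681 and 3499 CPM in the early-stage libraries and 2816, 2607 and 2728 CPM in the late-stage libraries (log2 fold change −0.45, SE 0.07, adjusted p = 0.00339). Both separated the stages in every library. H2-Eb1 was called (−0.45, adjusted p = 0.0187) but not in every alternative (adjusted p up to 0.102 without early-stage replicate 2 or late-stage replicate 2 or 3 and with no filter on low counts), and Ciita, the transactivator of the class, was at 76.3, 84.8 and 90.4 against 73.6, 63.4 and 54.4 CPM without a call (−0.39, adjusted p = 0.0626). Of 21 genes of MHC class I and the immunoproteasome, 3 were higher without early-stage replicate 1 and 0 with all libraries. Only B2m, the shared light chain, was called, at 3960, 3995 and 3920 against 3065, 3272 and 3343 CPM (−0.29, adjusted p = 0.0171), and not in every alternative (adjusted p up to 0.09 without early-stage replicate 2 or late-stage replicate 1, 2 or 3). Of 22 costimulatory and checkpoint genes, 7 were lower and 1, Siglece, higher, and the lower count was 3 without early-stage replicate 2 and 2 without late-stage replicate 2 or 3. Pdcd1lg2, the checkpoint ligand PD-L2, was at 11.4, 13.7 and 14.2 CPM in the early-stage libraries and 6.05, 5.85 and 4.99 CPM in the late-stage libraries (log2 fold change −1.22, SE 0.14, adjusted p = 6.92e-04), again without overlap, and Slamf7 and Pirb, further receptors of macrophages, fell by 0.39 and 0.44 (adjusted p = 0.00739 and 0.0094), with adjusted p up to 0.0612 without late-stage replicate 2 or 3 for Slamf7 and adjusted p up to 0.0663 without early-stage replicate 2 or late-stage replicate 2 or 3 for Pirb.

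Of 13 CC chemokines, 7 were lower and 1 higher in late-stage TAMs (median −0.56). The lower count was 5 without early-stage replicate 2 or late-stage replicate 2 or 3 and 6 without late-stage replicate 1. Ccl6 was at 1127, 1054 and 1097 CPM in the early-stage libraries and 448, 433 and 422 CPM in the late-stage libraries (log2 fold change −1.33, SE 0.07, adjusted p = 6.34e-06), and Ccl9, a ligand of CCR1 like it, was at 857, 880.1 and 976 CPM in the early-stage libraries and 409, 409.5 and 432 CPM in the late-stage libraries (log2 fold change −1.12, SE 0.07, adjusted p = 2.65e-05). Ccl7, which draws monocytes, was at 735, 752 and 685 against 479, 497 and 493 CPM (−0.56, adjusted p = 7.94e-04). Ccl8 was at 218, 232 and 194 against 134, 135 and 140.2 CPM (−0.65, adjusted p = 0.00101). None of the 4 overlapped between the stages. Ccl22, a ligand of CCR4 made by dendritic cells and some macrophages, was the member that rose, at 50.6, 49.4 and 48.7 CPM in the early-stage libraries and 66.0, 81.2 and 79.5 CPM in the late-stage libraries (log2 fold change 0.61, SE 0.09, adjusted p = 0.00319), and is itself one of the dendritic cell markers summed above. CXC chemokines split, with 4 of 13 higher (Cxcl9, Cxcl13, Cxcl14 and Cxcl16) and 6 lower. The higher count was 2 without early-stage replicate 2 or late-stage replicate 1, 2 or 3, and the lower count was 2 without early-stage replicate 2 or late-stage replicate 1 or 2 and 3 without late-stage replicate 3. Cxcl13, which draws B cells, was low at day 8, at 0.519, 0.272 and 0.145 CPM in the early-stage libraries and 2.81, 5.03 and 3.93 CPM in the late-stage libraries (log2 fold change 3.65, SE 0.44, adjusted p = 8.82e-04). Ppbp and Pf4, chemokines of platelets that macrophages also make, fell, Ppbp from 86.3, 90.7 and 88.1 CPM in the early-stage libraries to 21.1, 24.3 and 22.2 CPM in the late-stage libraries (log2 fold change −1.97, SE 0.08, adjusted p = 2.14e-06) and Pf4 from 513, 446 and 346 CPM in the early-stage libraries to 212, 234 and 239 CPM in the late-stage libraries (log2 fold change −0.93, SE 0.13, adjusted p = 0.00199). Cxcl12, a ligand of CXCR4 made by stroma, fell by 1.12 (adjusted p = 0.0161) beside the lower fibroblast sums, and its call was lost in some alternatives (adjusted p up to 0.0731 without early-stage replicate 2 or late-stage replicate 1, 2 or 3).

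Of 32 cytokines and growth factors, 7 (21.9%) were lower and 2 (Tnfsf13b and Pdgfb, 6.25%) higher, beside 4.93% and 4.33% of all autosomal genes. The lower count was 4 without early-stage replicate 2 or late-stage replicate 2 or 3. Il1b, the inflammatory cytokine interleukin 1 beta, was at 232, 251 and 189.8 CPM in the early-stage libraries and 114, 97.2 and 97.8 CPM in the late-stage libraries (log2 fold change −1.12, SE 0.11, adjusted p = 3.37e-04), and Il1rn, the antagonist of its receptor, was at 396, 402 and 415 CPM in the early-stage libraries and 230.0, 242 and 243 CPM in the late-stage libraries (log2 fold change −0.76, SE 0.06, adjusted p = 1.26e-04). Il18bp, a decoy that binds interleukin 18, had −0.78 (adjusted p = 3.93e-04), and Igf1, a growth factor of resident-type macrophages, had −0.81 (adjusted p = 5.20e-04). The gene of the agonist and that of the antagonist of the interleukin 1 receptor thus fell without overlap. Of 23 targets of NF-kB, the transcription factor of inflammatory signalling, 5 (21.7%) were lower and 2 (Tnip1 and Nfkb1, 8.7%) higher. The higher count was 0 without early-stage replicate 2 or late-stage replicate 1, 2 or 3 and 1 without early-stage replicate 3. Ptgs2, the inducible cyclooxygenase, was at 229, 272 and 250.3 CPM in the early-stage libraries and 181, 166 and 168 CPM in the late-stage libraries (log2 fold change −0.55, SE 0.08, adjusted p = 0.0029), and Tnfaip2, Tnip3 and Sod2 had log2 changes of −0.86, −0.94 and −0.60 (adjusted p = 1.97e-04, 0.00116 and 8.52e-04). Of 26 immediate early genes, 1 (3.85%) was lower and 2 (7.69%) higher, beside 4.93% and 4.33% of all autosomal genes. However, 7 were lower without early-stage replicate 3 and 3 without late-stage replicate 1. The higher count was 5 without early-stage replicate 1 and 1 without early-stage replicate 2 or late-stage replicate 1, 2 or 3. Nr4a3, an orphan nuclear receptor, was lower (−0.58, adjusted p = 0.00323), and Myc, a transcription factor of growth, was higher at 51.8, 47.3 and 38.7 against 77.4, 74.6 and 71.8 CPM (0.70, adjusted p = 0.00338). Fosb was also called higher (0.68, adjusted p = 0.0306), with early-stage replicate 3 at 137 CPM far below the other early-stage libraries, and its call did not hold (adjusted p up to 0.133 without early-stage replicate 2 or late-stage replicate 1, 2 or 3 and with no filter on low counts).

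Resident-type scavenger macrophages, long-lived tissue cells that take up debris, hemoglobin and lipoproteins, had a list of their own. Of 26 members, 15 were lower and 4 (Axl, Tgm2, Siglec1 and Pros1) higher (median −0.52), and 10 of the lower were called with each library left out in turn. The higher count was 2 without early-stage replicate 2 or late-stage replicate 2 or 3. Cd163, the receptor of haptoglobin-hemoglobin complexes, was at 45.2, 53.6 and 54.7 CPM in the early-stage libraries and 20.4, 15.8 and 13.8 CPM in the late-stage libraries (log2 fold change −1.62, SE 0.15, adjusted p = 1.90e-04). Lyve1, a hyaluronan receptor of perivascular macrophages, was at 67.2, 64.4 and 73.0 CPM in the early-stage libraries and 22.9, 16.3 and 16.7 CPM in the late-stage libraries (log2 fold change −1.87, SE 0.13, adjusted p = 4.36e-05). Cbr2, a carbonyl reductase, was at 238, 238 and 207 CPM in the early-stage libraries and 80.7, 70.3 and 72.9 CPM in the late-stage libraries (log2 fold change −1.61, SE 0.09, adjusted p = 1.15e-05). Every late-stage library was below every early-stage library for these 3 genes. Marco, a scavenger receptor, and Cd5l, a secreted protein of tissue macrophages, fell by 2.10 and 2.34 (adjusted p = 3.51e-04 and 1.38e-05). Folr2, a folate receptor named after its values were seen, was at 251, 246 and 206 against 116, 121 and 111 CPM (−1.02, adjusted p = 1.49e-04), and 63.1% of its exon bases are shared with other genes. Axl, a receptor kinase for the uptake of dying cells, moved against the list, at 266, 260.4 and 283 CPM in the early-stage libraries and 565, 568 and 558 CPM in the late-stage libraries (log2 fold change 1.06, SE 0.07, adjusted p = 2.04e-05).

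Of 18 iron and heme genes, 3 were lower and 0 higher, where the lower count was 5 without early-stage replicate 3. The list as a whole did not fall, with a median of −0.0065 and 9 members rising and 9 falling in sign. Slc40a1, ferroportin, the exporter of iron, was at 100.1, 106 and 125 CPM in the early-stage libraries and 34.2, 36.4 and 40.2 CPM in the late-stage libraries (log2 fold change −1.58, SE 0.10, adjusted p = 2.65e-05). Hmox1, heme oxygenase, which opens the heme ring, was at 3574, 3230 and 2937 CPM in the early-stage libraries and 1842, 2013 and 2011 CPM in the late-stage libraries (log2 fold change −0.73, SE 0.08, adjusted p = 6.39e-04). Cd163, counted among the scavenger genes as well, is the third. The ferritin heavy chain Fth1 was at 9910, 8909 and 8196 against 7079, 7604 and 7887 CPM and not called (adjusted p = 0.0771). Genes of the exporter, receptor and enzyme thus separated the stages in every library, and so did Fth1 without passing the test.

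Arginine metabolism was split. Arg1, the arginase of TAMs that turns arginine into ornithine, was at 1146, 1009 and 1012 CPM in the early-stage libraries and 440.4, 414 and 406 CPM in the late-stage libraries (log2 fold change −1.33, SE 0.08, adjusted p = 1.34e-05). Gatm, which starts the synthesis of creatine from arginine, rose instead, from 152, 151 and 164 CPM in the early-stage libraries to 280.0, 277 and 283 CPM in the late-stage libraries (log2 fold change 0.85, SE 0.07, adjusted p = 7.39e-05). Neither gene overlapped between the stages. Of 11 genes of arginine and polyamines, 4 (Arg1, Arg2, Nos2 and Slc7a2) were lower and 3 (Gatm, Odc1 and Srm) higher. The lower count was 2 without late-stage replicate 2 or 3, and the higher count was 1 without early-stage replicate 2 or late-stage replicate 2 or 3. Slc7a2, an arginine transporter, was at 22.3, 23.8 and 28.6 against 17.4, 15.9 and 15.5 CPM (−0.62, adjusted p = 0.0112) with adjusted p up to 0.07 without late-stage replicate 2 or 3. Arg2, the mitochondrial arginase, was at 3.91, 5.30 and 4.81 against 2.62, 2.11 and 2.18 CPM (−1.02, adjusted p = 0.0112) with adjusted p up to 0.0684 without early-stage replicate 2 or late-stage replicate 2 or 3. Odc1, the first enzyme of polyamine synthesis, named after its values were seen, was at 259, 239 and 212 against 317, 313 and 319 CPM (0.42, adjusted p = 0.0122) with adjusted p up to 0.0689 without early-stage replicate 2 or late-stage replicate 1, 2 or 3. Of the exon bases of Arg2, 28.1% are shared with other genes.

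Eicosanoids are lipid signals made from arachidonic acid, and of 17 genes of their synthesis 6 were lower and 3 (Ptgs1, Hpgds and Tbxas1) higher. The higher count was 0 without early-stage replicate 2 or late-stage replicate 1 or 3 and 1 without late-stage replicate 2. Ptges, the inducible prostaglandin E synthase, was at 17.6, 12.9 and 16.5 CPM in the early-stage libraries and 1.80, 2.46 and 3.49 CPM in the late-stage libraries (log2 fold change −2.60, SE 0.24, adjusted p = 1.80e-04). Hpgd, which breaks prostaglandins down, was at 3.48, 2.39 and 5.55 against 1.01, 1.07 and 0.956 CPM (−1.91, adjusted p = 0.00506), and Alox5, which makes leukotrienes, was at 15.2, 16.9 and 16 against 9.32, 10.2 and 9.43 CPM (−0.73, adjusted p = 0.00274). Pla2g7, which cleaves platelet-activating factor, was at 267, 279.5 and 252 CPM in the early-stage libraries and 117, 101 and 112 CPM in the late-stage libraries (log2 fold change −1.27, SE 0.08, adjusted p = 2.24e-05). The stages did not overlap for Ptges, Hpgd, Alox5 or Pla2g7. Ptges2 and Ptges3, which also encode prostaglandin E synthases, were not called.

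Genes of lipid handling also tended to lower levels, with 7 of 16 members of the lipid uptake and lipid-associated macrophage list lower and 1 (Pparg) higher. Of these members 3 were higher without early-stage replicate 1, and 0 without early-stage replicate 2 or late-stage replicate 1, 2 or 3. The lower count was 3 without early-stage replicate 2 and 4 without late-stage replicate 1, 2 or 3. Spp1, osteopontin, a secreted protein of TAMs in many tumors, was at 1034, 1061 and 1004 CPM in the early-stage libraries and 417, 498 and 518 CPM in the late-stage libraries (log2 fold change −1.11, SE 0.09, adjusted p = 7.48e-05), with 18.8% of its exon bases shared with other genes. Fabp5, a fatty acid-binding protein, was at 624, 567 and 455 CPM in the early-stage libraries and 253, 298 and 285 CPM in the late-stage libraries (log2 fold change −0.98, SE 0.12, adjusted p = 8.05e-04), and Cd36, a receptor for oxidized lipids, was at 541, 627 and 652 CPM in the early-stage libraries and 343, 383 and 378 CPM in the late-stage libraries (log2 fold change −0.72, SE 0.09, adjusted p = 8.82e-04). These 3 genes did not overlap between the stages and were called with each library left out. Gpnmb, a membrane protein of lipid-associated macrophages and of melanocytes, was at 799.8, 756 and 672 against 438, 562 and 555 CPM (−0.52, adjusted p = 0.0161) beside the lower melanoma sums, with adjusted p up to 0.0737 without early-stage replicate 2 and with no filter on low counts. Of 15 targets of the sterol receptor LXR, 3 (Abca1, Apoc2 and Scd2) were lower and 0 higher, and the lower count was 6 without early-stage replicate 3. Abca1, the exporter of cholesterol, was at 388, 510.3 and 516 against 312, 314 and 313 CPM (−0.59, adjusted p = 0.00748) with adjusted p up to 0.0536 without early-stage replicate 2, and Scd2, a fatty acid desaturase, was at 243, 249 and 281 against 154, 177 and 177 CPM (−0.61, adjusted p = 0.0022). Of 22 genes of cholesterol synthesis, Msmo1 (−0.43, adjusted p = 0.0187) and Cyp51 (−0.34, adjusted p = 0.0475) were lower and 0 were higher, where the lower count was 5 without early-stage replicate 1, 0 without early-stage replicate 2 or late-stage replicate 1, 2 or 3 and 1 without early-stage replicate 3. Both lost their calls in some alternatives (adjusted p up to 0.0904 without early-stage replicate 2 or late-stage replicate 1, 2 or 3 for Msmo1, adjusted p up to 0.175 without early-stage replicate 2 or 3 or late-stage replicate 1, 2 or 3 and with no filter on low counts for Cyp51).

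NRF2 is the transcription factor of the response to oxidants, and 9 of its 19 listed targets were lower and 0 higher (median −0.37). Their count was 5 without early-stage replicate 2 or late-stage replicate 1, 2 or 3. Gclm, a subunit of the enzyme that starts glutathione synthesis, was at 127, 129 and 126 CPM in the early-stage libraries and 76.8, 85.4 and 87.1 CPM in the late-stage libraries (log2 fold change −0.61, SE 0.07, adjusted p = 9.43e-04). Slc7a11, the cystine transporter, was at 18.4, 24.3 and 25 CPM in the early-stage libraries and 9.77, 7.89 and 8.03 CPM in the late-stage libraries (log2 fold change −1.40, SE 0.15, adjusted p = 4.63e-04). Srxn1, sulfiredoxin, had −0.52 (adjusted p = 0.00186), and Gstm1, a glutathione transferase, had −0.77 (adjusted p = 0.00659). None of the 4 overlapped, and melanoma sums, which were lower as well, were not separated from them. Of 21 targets of ATF4, the factor of amino acid shortage, 4 (Pck2, Slc7a5, Shmt2 and Psat1) were higher and 0 lower, where the higher count was 1 without early-stage replicate 2 or late-stage replicate 2 or 3, and only Pck2, mitochondrial phosphoenolpyruvate carboxykinase, held with each library left out, at 30.3, 24.7 and 25.6 CPM in the early-stage libraries and 47.5, 49.4 and 50.6 CPM in the late-stage libraries (log2 fold change 0.87, SE 0.10, adjusted p = 6.39e-04). Slc7a5, an amino acid transporter, and Shmt2, a mitochondrial serine enzyme, had 0.42 and 0.55, with adjusted p up to 0.116 without early-stage replicate 2 or late-stage replicate 2 or 3 and with no filter on low counts for Slc7a5 and adjusted p up to 0.0594 without early-stage replicate 2 or late-stage replicate 2 or 3 for Shmt2.

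Complement genes moved in both directions, with 3 of 15 higher and 5 lower. The higher count was 5 without early-stage replicate 1, and the lower count was 2 without early-stage replicate 2 or late-stage replicate 1, 2 or 3. C4b, a component of the classical pathway, rose from 153, 152 and 148 CPM in the early-stage libraries to 307, 281 and 287 CPM in the late-stage libraries (log2 fold change 0.95, SE 0.07, adjusted p = 4.36e-05), while C3, the central component, fell from 311, 319.8 and 365 CPM in the early-stage libraries to 161, 136 and 141 CPM in the late-stage libraries (log2 fold change −1.18, SE 0.09, adjusted p = 6.82e-05). Itgax (CD11c), a chain of a complement receptor, rose by 0.56 (adjusted p = 9.98e-04). C1qa, which encodes a chain of C1q and is also the highest macrophage marker, was at 2123, 1758 and 1458 against 2506, 2515 and 2475 CPM (0.49, adjusted p = 0.0291), with adjusted p up to 0.115 without early-stage replicate 2 or late-stage replicate 1, 2 or 3 and with no filter on low counts. Early-stage replicates thus varied for C1qa while the late-stage replicates agreed closely.

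Lysosomal genes were mostly not called, with 3 of 40 (7.5%) higher and 7 (17.5%) lower, beside 4.33% and 4.93% of all autosomal genes. The median log2 fold change of the list was −7.4e-04. The higher count was 7 without early-stage replicate 1, and the lower count was 2 without early-stage replicate 2 or late-stage replicate 1 or 2 and 3 without late-stage replicate 3. Man2b1, lysosomal alpha-mannosidase, was at 414, 416 and 400.0 CPM in the early-stage libraries and 612, 617 and 608 CPM in the late-stage libraries (log2 fold change 0.58, SE 0.06, adjusted p = 4.84e-04). Ctsk, a cathepsin that digests collagen, was at 43.2, 32.9 and 33.1 CPM in the early-stage libraries and 14.8, 17.9 and 20.9 CPM in the late-stage libraries (log2 fold change −1.03, SE 0.15, adjusted p = 0.00292). The mannosidase gene was higher and the cathepsin gene lower in every late-stage library than in any early-stage library. Of 23 matrix proteases and matrix proteins, 7 were lower and 3 (Mmp12, Mmp13 and Tgfbi) higher, and the higher count was 1 without late-stage replicate 2 or 3. Fn1, fibronectin, which monocytes and fibroblasts both make, was at 724, 822 and 835 CPM in the early-stage libraries and 515, 406 and 393 CPM in the late-stage libraries (log2 fold change −0.86, SE 0.11, adjusted p = 0.00124), beside lower sums of both marker lists. Mmp12, the macrophage elastase, was at 309, 323 and 309.7 CPM in the early-stage libraries and 429, 467 and 457 CPM in the late-stage libraries (log2 fold change 0.52, SE 0.07, adjusted p = 0.00125), and Mmp19 was at 78.6, 75.3 and 81.1 against 56.2, 50.2 and 52.3 CPM (−0.57, adjusted p = 0.00181), with 28.3% of its exon bases shared with other genes. The elastase rose while fibronectin fell, without overlap in either.

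**Figure D4:**
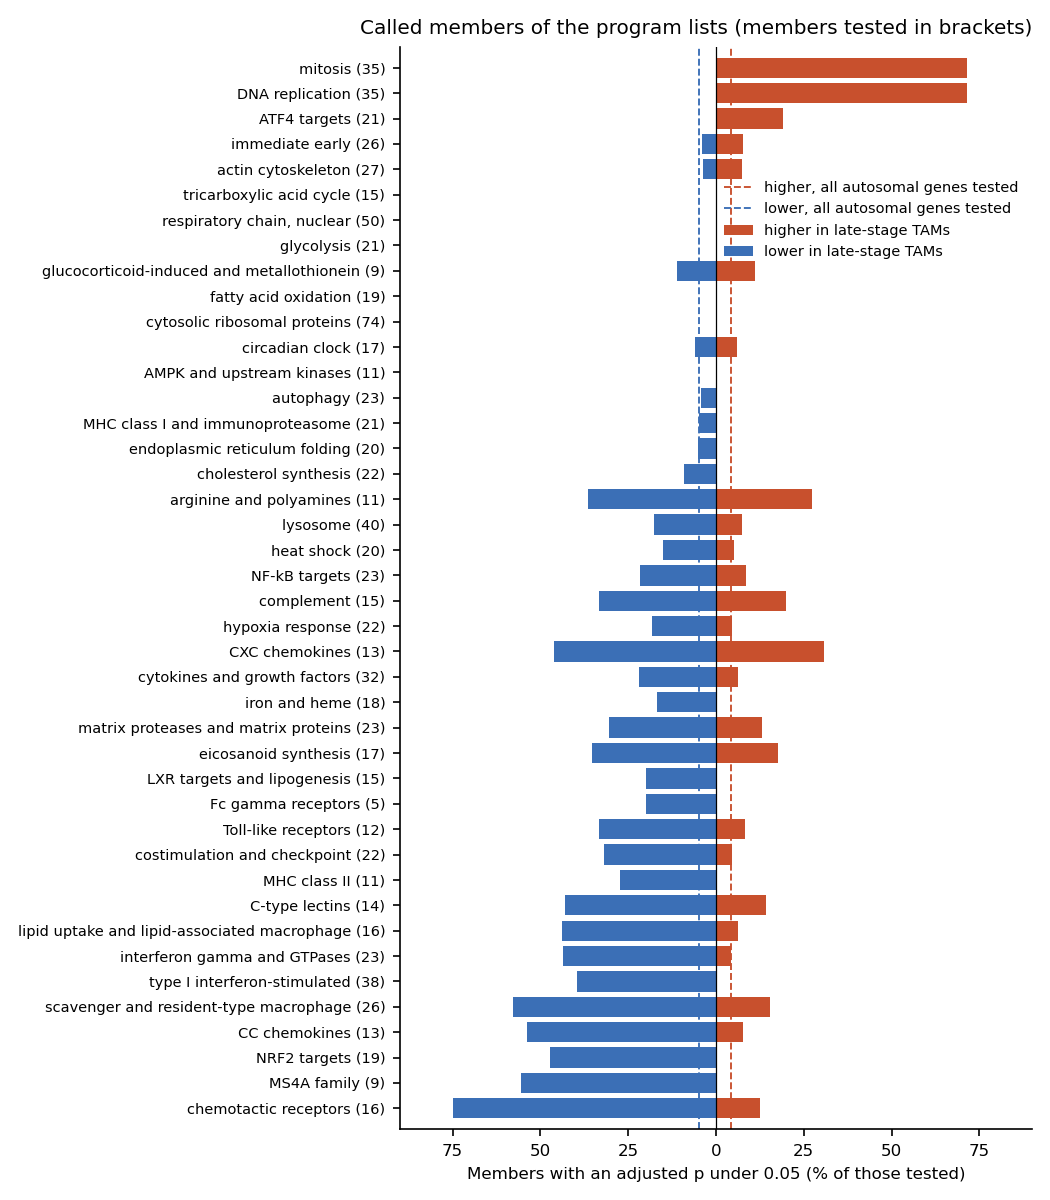
Share of the tested members of each of 42 program lists that were called higher (right) or lower (left) in late-stage TAMs, with dashed lines at 4.33% and 4.93% for all autosomal genes tested. Mitosis and DNA replication have 25 of 35 members each on the right and none on the left, and chemotactic receptors have 12 of 16 members on the left.

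Hypoxia genes gave 4 lower (Hif1a, Bnip3, Egln3 and Mxi1) and 1 higher of 22, and the lower count was 2 without early-stage replicate 2 or late-stage replicate 2 and 1 without late-stage replicate 3. Hif1a, the oxygen-regulated factor itself, was at 233, 277 and 322 CPM in the early-stage libraries and 175, 182 and 189 CPM in the late-stage libraries (log2 fold change −0.61, SE 0.11, adjusted p = 0.00773). Every late-stage library was below every early-stage library for it. Of 20 heat shock genes, 3 (Chordc1, Dnaja1 and Hspa4l, 15%) were lower and 1 (5%) higher, beside 4.93% and 4.33% of all autosomal genes. None of them was called with each library left out. The lower count was 5 without early-stage replicate 1, 0 without early-stage replicate 2 or late-stage replicate 2 and 1 without late-stage replicate 1 or 3, and the higher count was 3 without early-stage replicate 1, 2 without early-stage replicate 3 and 0 without the others. Hspa1b, which has a near-identical copy in Hspa1a, was at 1101, 995 and 573 against 1665, 1457 and 1434 CPM (0.77, adjusted p = 0.0392), with early-stage replicate 3 far below the rest, and with adjusted p up to 0.149 without early-stage replicate 2 or late-stage replicate 1, 2 or 3 and with no filter on low counts. Of 17 clock genes, Nfil3, a repressor that works against Dbp, was lower (−0.62, adjusted p = 0.0024), and Per2 was higher (0.74, adjusted p = 0.0326) with adjusted p up to 0.126 without early-stage replicate 2 or 3 or late-stage replicate 1 or 3 and under 2 other alternatives. Of 9 genes that glucocorticoids or metals induce, 1 was higher and 1 lower, where the lower count was 3 without early-stage replicate 3, 2 without early-stage replicate 1 and 0 without late-stage replicate 2 or 3. Fkbp5, a cochaperone of the glucocorticoid receptor, was at 39.4, 41.8 and 41.4 CPM in the early-stage libraries and 56.0, 55.4 and 56.0 CPM in the late-stage libraries (log2 fold change 0.45, SE 0.07, adjusted p = 0.00496). Fkbp5 thus rose by a small and even amount, and Cdkn1a, an inhibitor of the cell cycle in the same list, fell by 0.52 (adjusted p = 0.00838), with adjusted p up to 0.0602 without late-stage replicate 2 or 3. Of 20 genes of protein folding in the endoplasmic reticulum only Dnajb9 was called, and of 23 autophagy genes only Sqstm1, both lower and neither called with each library left out. Of 27 genes of the actin cytoskeleton, Myh9 (0.38, adjusted p = 0.00831) and Tln1 (0.32, adjusted p = 0.018) were higher and Vcl (−0.65, adjusted p = 0.00472) lower, of which only Vcl held with each library left out. The actin list's higher count was 5 without early-stage replicate 1, 0 without early-stage replicate 2 or late-stage replicate 2 or 3 and 1 without late-stage replicate 1, and the lower count was 3 without early-stage replicate 1. The others had adjusted p up to 0.0583 without early-stage replicate 2 or late-stage replicate 2 or 3 for Myh9 and adjusted p up to 0.104 without early-stage replicate 2 or late-stage replicate 1, 2 or 3 for Tln1. Called shares were 7.41% higher and 3.7% lower for actin genes and 5.88% each way for clock genes. Lower shares were 5% for folding and 4.35% for autophagy genes. These shares lay near the 4.33% higher and 4.93% lower of all autosomal genes.

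Housekeeping metabolism gave no calls. Of 21 genes of glycolysis, 19 of fatty acid oxidation, 15 of the tricarboxylic acid cycle, 50 nuclear genes of the respiratory chain, 74 cytosolic ribosomal proteins and 11 genes of AMPK and its upstream kinases, 0 were called in either direction. Their medians were −8.7e-05, 0.07, 0.12, 0.03, 0.10 and −0.08. At p under 0.05 without adjustment, 2, 4, 4, 12, 13 and 5 members of these 6 lists passed in that order, beside 4161 of all 17012 autosomal genes tested. DESeq2 called 1, 0, 0, 3, 3 and 1. These counts were not stable, since without early-stage replicate 1 there were 26 ribosomal and 12 respiratory chain genes higher, with 2 of glycolysis, 3 of fatty acid oxidation and 1 each of the cycle and of AMPK. Pkm, pyruvate kinase, was at 3792, 3248 and 3080 CPM in the early-stage libraries and 3592, 3773 and 3914 CPM in the late-stage libraries (adjusted p = 0.293), and Prkaa1, a catalytic subunit of AMPK, was at 64.1, 70.5 and 81.6 CPM in the early-stage libraries and 54.2, 64.6 and 64.2 CPM in the late-stage libraries (adjusted p = 0.204). The stages overlapped for both genes. Sdha, a subunit of complex II, came nearest among the respiratory genes, at 225, 209 and 226 against 252, 264 and 266 CPM (0.24, adjusted p = 0.0536).

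Lymphoid transcripts were few in a macrophage gate and moved in more than 1 direction. Of 16 T cell markers, 9 were higher and 0 lower, and the count was 2 without early-stage replicate 2 or late-stage replicate 2 or 3. Tcf7, a factor of naive and memory-like T cells with the highest level of that list, was at 35.7, 37.5 and 36.0 against 43.3, 51.0 and 47.8 CPM (0.38, adjusted p = 0.0251), with adjusted p up to 0.138 without early-stage replicate 2 or late-stage replicate 2 or 3 and with no filter on low counts. Of 13 B cell markers, 5 were higher, among them Ighm and Cd79b, and 0 lower. The higher count was 3 without early-stage replicate 2 or late-stage replicate 2 or 3. Late-stage libraries were all above early-stage libraries for 6 of the 13 markers, beside 15.7% of all autosomal genes. Ighm, the heavy chain of IgM and the highest B cell marker, was at 109.9, 108 and 110.0 CPM in the early-stage libraries and 189, 227 and 225 CPM in the late-stage libraries (log2 fold change 0.97, SE 0.08, adjusted p = 1.45e-04). Of 9 NK cell markers, 7 were lower and 0 higher, and the lower count was 4 without late-stage replicate 2. Gzma, a granzyme named after its values were seen, was at 28.9, 29.7 and 29.2 against 6.19, 9.55 and 9.73 CPM (−1.79, adjusted p = 1.97e-04). The stages did not overlap for Ighm or for Gzma. Of 10 melanoma markers, 8 were lower, and the count was 1 without early-stage replicate 2, 4 without early-stage replicate 3 and 3 without late-stage replicate 2. Dct, an enzyme of pigment synthesis and the highest of them, was at 543, 519 and 548 against 248, 385 and 406 CPM (−0.63, adjusted p = 0.0329), with adjusted p up to 0.107 without early-stage replicate 2 or 3 or late-stage replicate 2 and with no filter on low counts, and late-stage replicate 1 was the lowest library. Col1a1, the collagen chain that leads the fibroblast list, was at 425, 395 and 364 CPM in the early-stage libraries and 185, 259 and 258 CPM in the late-stage libraries (log2 fold change −0.75, SE 0.13, adjusted p = 0.00564). Late-stage replicate 1 was again the lowest, and both kinds of transcript were lower in every late-stage library.

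**Figure D5:**
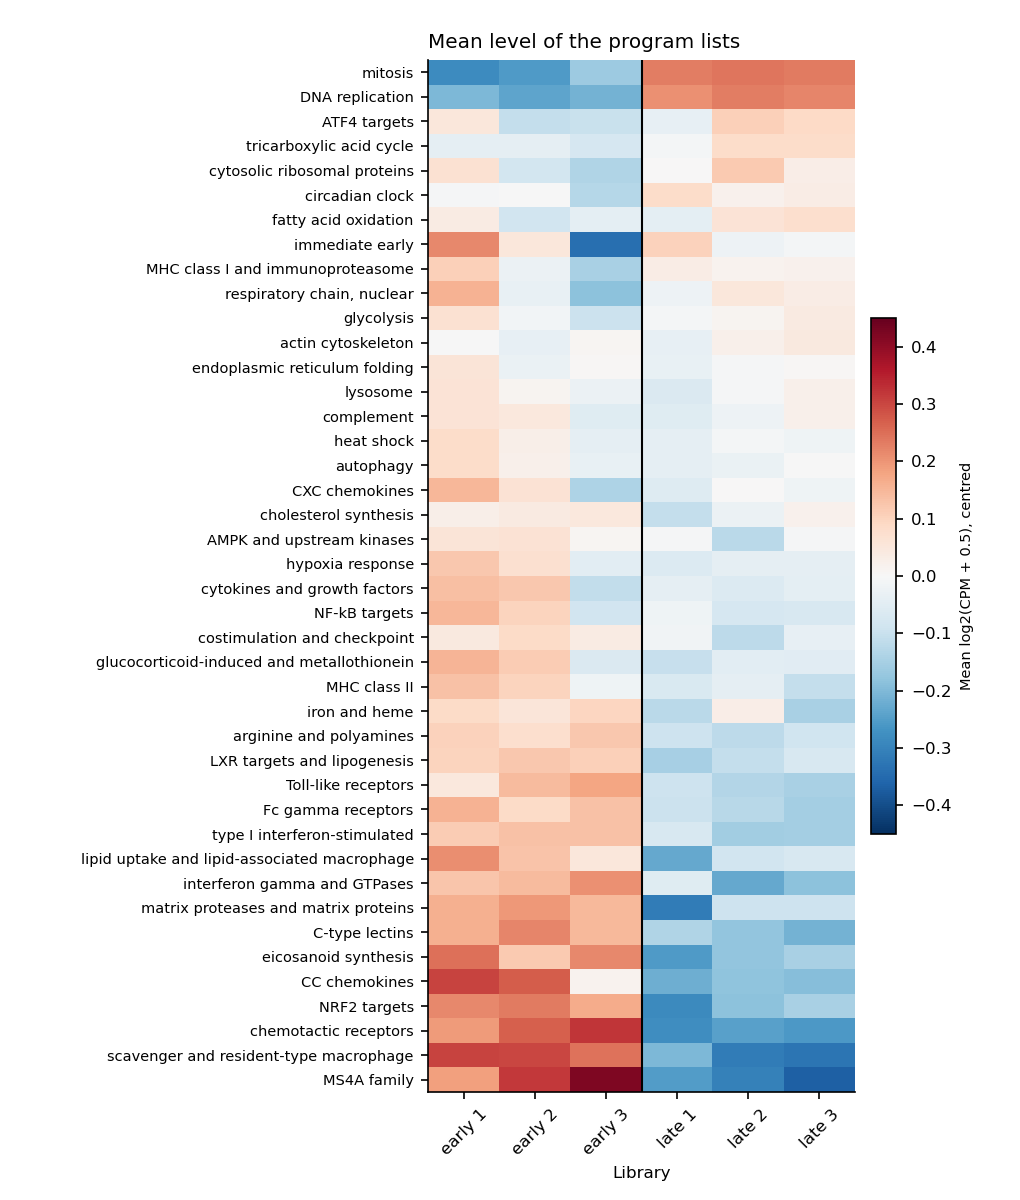
Mean level of the tested members of each of 42 program lists in each library, as log2(CPM + 0.5) averaged over members and centred on the 6 libraries (colour scale), with lists ordered by the difference between the stages. The mitosis list lay between -0.28 and -0.16 in the early-stage libraries and between 0.23 and 0.24 in the late-stage libraries, and the largest falls stand at the bottom.

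Over the 42 program lists with 932 genes, 36 held at least 1 called member and 22 held members called in both directions. The lists overlap in some genes and were described by counts and medians alone, with no test of a list as a whole.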

How the data were processed

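Bulk RNA-seq of sorted TAMs was analysed in the 3 early-stage and 3 late-stage samples. Per the methods, RNA was taken with the RNeasy plus Mini kit, made into libraries with a dual-mode kit and sequenced on a NovaSeq instrument. The authors used HISAT2 for alignment and featureCounts for counting, and deposited 1 table of raw counts per gene for this comparison. Versions and the handling of strand and of multiply mapped reads are not given in the sources used here. Strand being unstated, reads of genes that share exon bases cannot be told apart, and these shares were computed from the annotation. The labels name the GRCm38 mouse genome, and autosomes and coordinates came from GENCODE M21 on that build. Upstream sequences came from RefSeq.

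The whole table was filtered with filterByExpr, scaled by TMM and tested without covariates by the quasi-likelihood functions of edgeR 4.0.16 under R 4.3.3. The p-values were adjusted over all 17630 genes, with a threshold of 0.05 and, where stated, an absolute log2 fold change above 1. Common biological coefficient of variation was 0.201. Marker sums were compared by two-sided exact permutation tests. The comparison was tested on simulated data. Members and lists were chosen with earlier results of these data known. The lists were written from general knowledge. Named genes were the 15 higher and 15 lower genes of smallest p past both thresholds without overlap, the 10 of largest change each way with a mean of at least 10 CPM, the 5 members of smallest p in each program list, the gate genes and the highest gene of each marker list, of which some are not reported here. Other genes are said to be named after their values were seen. Alternatives were RLE and upper-quartile scaling, DESeq2 1.42.0, no filter, at least 10 counts in every library, autosomal genes alone, leaving out single libraries, and a replicate block. Tables were handled with pandas 2.3.3 and plots drawn with matplotlib 3.10.9 in Python 3.11.15. The columns of the other comparison were not used.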

Additional observations from a re-analysis of the deposited data

Results flagged for a closer look

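Sex-linked genes lie outside the autosomal comparison and gave a signal that differed between the stages. Summed over the 3 early-stage libraries, 4 Y-linked genes had 10959 counts, against 4 counts in the late-stage libraries, although the methods describe female mice. Xist, which is made from the inactive X chromosome, had 90422 counts summed over the 3 late-stage libraries and was detected in every early-stage library too. Whether male and female mice were pooled in the early-stage libraries was not tested.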

How the results depend on the processing

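With 77155066 to 84470374 counts per library, depth limits only genes of low level, and 3 libraries per stage limit every test. With DESeq2, 1133 autosomal genes were higher in late-stage TAMs in place of 736. With no filter on low counts, more genes shared the adjustment, and 419 were higher, 492 lower and 61 higher past the fold threshold. With 1 library left out, higher calls ranged from 275 to 1483, lower calls from 358 to 1255, and calls past the fold threshold from 65 to 178 higher and from 150 to 228 lower. The cause was not tested. The other settings, RLE and upper-quartile scaling, at least 10 counts in every library and autosomal genes alone, stayed within 1.5 times of every count. With DESeq2, lower calls were 1208, and calls past the fold threshold were 148 higher and 247 lower. No named gene that was called changed direction under any of the 13 alternatives. Replicate numbers did not pair the samples, since the correlations of same-numbered libraries' deviations were 0.013, 0.018 and 0.026, and the replicate block gave 657 higher and 717 lower genes, with 102 and 191 past the fold threshold. Of 736 higher and 838 lower calls, 216 and 294 held under all 13 alternatives.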
